A study of Homo sapiens with 4 samples.

Results

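NF-κB factors, their inhibitors and the chemokines of the gut epithelium were followed in colon cells given sturgeon chondroitin sulfate (SCS), a sulfated polysaccharide prepared from hybrid sturgeon. The members are 10 genes of the 64936 named rows of the expression table, taken by gene symbol: the factors NFKB1, NFKB2 and RELB, the inhibitors NFKBIA and TNFAIP3, and the chemokines CXCL1, CXCL2, CXCL3, CXCL8 and CCL20. Of the 10, 9 had at least 1 fragment in some library, 6 had fragments in all 4 libraries, and 3 never exceeded 3 fragments. The data are RNA-seq of HT-29, a human colorectal adenocarcinoma line, and of NCM460, a line used as normal colon cells. Each line was sequenced untreated (control) and after 24 h with 100 μg/mL SCS, with serum in the medium throughout. The labels give the same serum share and penicillin-streptomycin for all samples, whereas the study's methods name a larger serum share for NCM460 and penicillin-streptomycin for the cancer lines. There was 1 library per condition, so no value below has a replicate, no test between SCS and control was possible within a line, and all intervals are 95% exact intervals that cover counting error alone.

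NF-κB is a family of dimeric transcription factors that inhibitors hold in the cytoplasm until a signal frees them. In the canonical pathway, IκBα (NFKBIA) is degraded and dimers that hold p50 (from NFKB1) and RelA enter the nucleus. In the alternative pathway, p100 (from NFKB2) is processed to p52, the usual partner of RelB. In gut epithelium these factors are known to drive chemokines that draw neutrophils (CXCL1, CXCL2, CXCL3 and CXCL8) and lymphocytes or dendritic cells (CCL20), and to drive their own brakes, NFKBIA and TNFAIP3 (A20, a ubiquitin-editing enzyme).

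Depth set what could be seen. The 4 libraries held 1156568 to 1654764 fragments, of which 507692 to 1383424 came from nuclear genes. The mitochondrial share was 35.8% in the HT-29 control and 13.8% with SCS, and 62.3% in the NCM460 control and 46.3% with SCS. Levels are given as CPM, a gene's fragments relative to the size of the library after TMM scaling, on which scale 3 fragments amount to 1.47 CPM in the HT-29 control, 1.25 CPM in HT-29 with SCS, 3.85 CPM in the NCM460 control and 2.77 CPM in NCM460 with SCS. Across loci, the log2 fold change went against transcript GC content with a Spearman rho of -0.161 over 8039 loci in HT-29 and of -0.728 over 8072 loci in NCM460, as a description of these libraries. Values for NCM460 are therefore also given after subtraction of that trend. What part the mitochondrial share and GC content had in the values was not tested. Of 11 colon epithelium markers, 9 were detected in HT-29 and 6 in NCM460, where KRT20, VIL1, CEACAM5 and LGALS4 were at 0. CDX1 was at 0 in all 4 libraries, and CDX2 was at 0 in HT-29 with 14 and 12 fragments in NCM460. Among the 12 leukocyte markers, PTPRC, CD3D, CD3E, CD14, S100A8 and S100A9 were at 0 in all 4 libraries, while others were detected. LYZ had 603 fragments in the HT-29 control and 352 with SCS, and the CD68 locus, which overlaps EIF4A1, had fragments in both lines. ITGAM had 8 and 4 fragments in HT-29. MS4A1 had 2 and 2 in HT-29 and 5 and 1 in NCM460, and CSF1R had 3 and 1 in HT-29 and 4 and 2 in NCM460.

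The promoters of the 4 CXC chemokines are shown because all of them hold the same NF-κB core while the transcripts differed in level. The promoter of CCL20, which is not shown, held a consensus match and no core. Each line gives 100 bases, 5′ to 3′ on the gene's strand, from the RefSeq promoters on GRCh38.p14, which run from 250 bases before to 50 bases after a gene's start. Capitals mark matches to the NF-κB consensus or to its core, written GGAATTTCC (GGAAATTCC on the other strand). The promoter of CXCL8 held the core and no consensus match, so its capitals mark the core alone.
CXCL1: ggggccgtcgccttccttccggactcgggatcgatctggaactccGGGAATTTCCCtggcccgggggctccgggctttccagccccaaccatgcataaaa
CXCL2: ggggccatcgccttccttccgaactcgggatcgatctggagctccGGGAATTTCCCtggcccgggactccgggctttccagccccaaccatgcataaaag
CXCL3: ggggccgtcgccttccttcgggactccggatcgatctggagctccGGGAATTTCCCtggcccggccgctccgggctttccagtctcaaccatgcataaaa
CXCL8: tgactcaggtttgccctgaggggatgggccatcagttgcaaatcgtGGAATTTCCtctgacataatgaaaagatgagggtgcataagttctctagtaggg
These windows lie at chr4:73869269-73869368 on the plus strand, chr4:74099219-74099318 on the minus strand, chr4:74038714-74038813 on the minus strand and chr4:73740432-73740531 on the plus strand. After alignment, 95 of the 100 bases were identical between CXCL1 and CXCL2, 93 between CXCL1 and CXCL3, and 91 between CXCL2 and CXCL3. The capitals begin 79, 78, 79 and 91 bases before the RefSeq start.

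The promoters of the factors and of the inhibitor NFKBIA are shown beside them, since these genes are known NF-κB targets themselves and moved in different directions.
NFKB1: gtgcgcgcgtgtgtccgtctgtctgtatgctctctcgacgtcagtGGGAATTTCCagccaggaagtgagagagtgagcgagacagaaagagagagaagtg
NFKB2: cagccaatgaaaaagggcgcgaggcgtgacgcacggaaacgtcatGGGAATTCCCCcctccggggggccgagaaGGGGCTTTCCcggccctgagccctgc
NFKBIA: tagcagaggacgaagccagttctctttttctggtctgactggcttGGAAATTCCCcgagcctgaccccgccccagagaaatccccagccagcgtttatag
They lie at chr4:102501265-102501364 on the plus strand, chr10:102394426-102394525 on the plus strand and chr14:35404776-35404875 on the minus strand, and the NFKB2 window belongs to the second of its 3 RefSeq starts. Of the 10 members, 9 had a RefSeq promoter. RELB is named only. These 9 members had 12 promoters, since NFKB1 and NFKB2 have several starts. The core was in 6 of the 12, against 162 of all 35116 promoters of 300 bases (0.461%). The NF-κB consensus was in 9 of the 12, against 2075 promoters (5.91%), and the broad pattern GGGNNNNNCC in 12 of the 12, against 20602 (58.7%). Both strands were searched, and matches of the motifs overlap. The core was written down after the sequences had been read, and a match is a description of the letters only.

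In HT-29 cells, the factors of the alternative pathway and CXCL2 were higher with SCS, and NFKB1 was lower. Of the 10 members, 7 reached a mean of 1 CPM in this line and were compared. A gene was called when its fold change exceeded 1.5 and its interval left out no change. NFKB2, RELB and CXCL2 were called higher, 3 of 7, where 16.8% of all 12168 loci compared were called higher. NFKB1 was called lower, 1 of 7, where 14.8% of loci were. The median log2 fold change of all loci in HT-29 was 0.07.

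In NCM460 cells, NFKBIA alone of the 7 members compared was called, and it was lower with SCS. No member was called higher, where 15.4% of 12657 loci were, and 13.8% were called lower. With the GC trend subtracted the calls for the 7 members were as before, 0 higher and 1 lower, while the share of all loci called dropped to 5.59% higher and 6.23% lower. The median over all loci in NCM460 was 0.03 before subtraction.

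**Figure D1:**
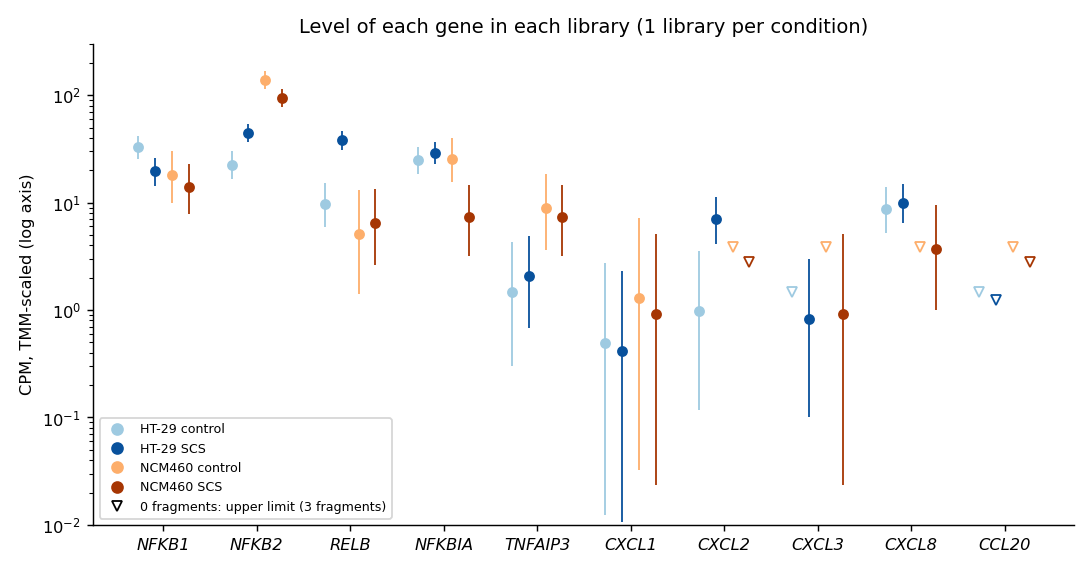
CPM after TMM scaling (log axis) of each of the 10 genes in the 4 libraries, with 95% exact Poisson intervals; open triangles mark 0 fragments and stand at the level of 3 fragments. NFKB2 was highest in the NCM460 control at 139 CPM, RELB stood apart in HT-29 with SCS at 38.3 CPM, and CXCL1, CXCL3 and CCL20 stayed at or under 2 fragments throughout.

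NFKB1 (chr4:102501329-102617302) encodes p105, which is processed to p50. It had 67 fragments in the HT-29 control and 47 with SCS, or 32.7 and 19.6 CPM, and 14 and 15 fragments in the NCM460 control and with SCS, or 18.0 and 13.9 CPM. The HT-29 control was the highest of the 4 libraries in CPM, and the NCM460 control was the highest in deposited FPKM, at 13.6 against 10.5. The log2 fold change with SCS was -0.71 (-1.31 to -0.18) in HT-29 and -0.35 (-1.53 to 0.79) in NCM460, or -0.26 with the GC trend subtracted. The HT-29 call was lost when the libraries were scaled by total fragments alone, at -0.45.

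NFKB2 (chr10:102394110-102402529) had the most fragments of all members. It had 46 fragments in the HT-29 control and 108 with SCS, or 22.5 and 44.9 CPM. The NCM460 libraries held 108 (control) and 102 (SCS), or 139 and 94.3 CPM. Both NCM460 libraries stood above both HT-29 libraries. The log2 fold change was 0.96 (0.49 to 1.53) in HT-29. By the deposited FPKM it was 0.51 in HT-29 and no longer called. In NCM460 it was -0.55 (-0.96 to -0.15), under the 1.5-fold limit, and 0.15 (-0.26 to 0.55) with the GC trend subtracted, so its direction there depended on that step. Other scalings moved it both ways in NCM460. It was at 0.14 (-0.27 to 0.54) by total fragments and at -0.37 (-0.78 to 0.03) by nuclear fragments, neither called, and it was called lower at -0.65 with DESeq2's size factors and at -0.70 with the authors' own scaling. With a trend on transcript length subtracted it was at -0.63 and likewise called lower.

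RELB (chr19:45001430-45038198) encodes the partner of p52. It had 20 fragments in the HT-29 control and 92 with SCS, or 9.78 and 38.3 CPM, and 4 and 7 fragments in NCM460, or 5.14 and 6.47 CPM. HT-29 with SCS stood apart from the other 3 libraries. The log2 fold change was 1.84 (1.26 to 2.75) in HT-29, a ratio of 3.92, and lay between 1.71 and 2.12 under the 11 alternatives, with the call kept in each. In NCM460 it was 0.27 (-1.64 to 2.55), or 1.00 (-0.91 to 3.28) with the GC trend subtracted, an interval that holds a change as large as that in HT-29.

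The shares of fragments among the subunits do not depend on how libraries are scaled. They can depend on the GC trend, which was not subtracted from them. Transcript GC content was 50.1% for NFKB1, 62.4% for NFKB2, 57.1% for RELA, 65.4% for RELB and 38.7% for REL. NFKB2 made up 40.7% (31.6 to 50.4) of the fragments of NFKB1 and NFKB2 in the HT-29 control, 46 of 113, and 69.7% (61.8 to 76.8) with SCS, 108 of 155. In NCM460 the same share was 88.5% (81.5 to 93.6) in the control and 87.2% (79.7 to 92.6) with SCS. The HT-29 intervals did not overlap, and the NCM460 intervals did. RELB made up 21.5% (13.7 to 31.2) of the fragments of RELA and RELB in the HT-29 control and 42.2% (35.6 to 49.1) with SCS. In NCM460 it was 4.21% (1.16 to 10.4) in the control, 4 of 95, and 12.1% (4.99 to 23.3) with SCS, 7 of 58. Fragments are not divided by length here, so these shares compare libraries and not the abundance of one subunit with another.

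Over all 5 subunits, NFKB2 and RELB together took 26.2% (20.9 to 32.1) of fragments in the HT-29 control, 66 of 252, and 44.7% (40.1 to 49.5) with SCS, 200 of 447. In NCM460 they took 50.2% (43.5 to 57.0) in the control and 53.4% (46.3 to 60.4) with SCS. NFKB1 took 26.6% in the HT-29 control and 10.5% with SCS, and 6.28% and 7.35% in NCM460. RELA, the transactivating partner of p50, took 73 of 252 fragments in the HT-29 control and 126 of 447 with SCS, and 91 of 223 (34.3% to 47.6%) and 51 of 204 (19.2% to 31.5%) in NCM460. REL took 18.3% and 16.6% in HT-29, and 2.69% and 14.2% in NCM460. What part GC content had in these shares was not tested.

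**Figure D2:**
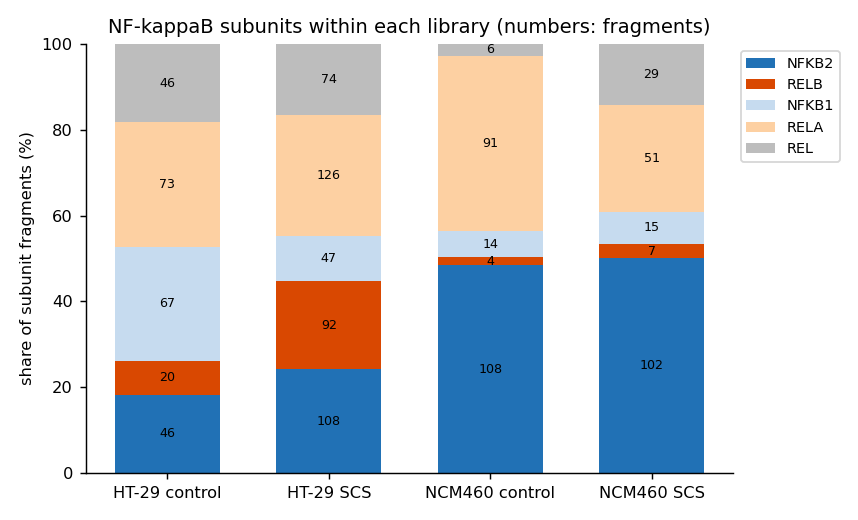
Stacked bars give the share (%) of each NF-κB subunit among the fragments of the 5 subunits in each library, with the fragment counts written in. The share of NFKB2 and RELB together was 26.2% in the HT-29 control and 44.7% with SCS, and 50.2% and 53.4% in NCM460.

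The other subunits were not members but belong to the same family. RELA had 73 fragments in the HT-29 control and 126 with SCS, a log2 fold change of 0.54 (0.13 to 0.99) under the 1.5-fold limit, and of 0.60 (0.19 to 1.06) with the GC trend subtracted, which was called higher. In NCM460 the counts were 91 and 51, with a log2 value of -1.29 (-1.83 to -0.80), called lower, and -0.71 (-1.26 to -0.23) with the GC trend subtracted. REL, which shares its fragments with an overlapping gene, had 46 and 74 fragments in HT-29, at 0.43 (-0.10 to 1.02). The NCM460 counts were 6 and 29, at 1.65 (0.51 to 3.36), a call lost with the GC trend subtracted (0.47).

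NFKBIA (chr14:35401511-35404749), which encodes IκBα, had 51 fragments in the HT-29 control and 70 with SCS, or 24.9 and 29.1 CPM. The NCM460 libraries held 20 and 8, or 25.7 and 7.40 CPM. NCM460 with SCS was the low library of the 4. The log2 fold change was 0.21 (-0.32 to 0.77) in HT-29 and -1.64 (-3.19 to -0.55) in NCM460, called lower. With the GC trend subtracted it was -1.27 (-2.82 to -0.19) in NCM460 and still called, and with scaling by total fragments alone it was -0.97 and not called.

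TNFAIP3 (chr6:137867188-137883312) was near the limit of the data in HT-29, with 3 fragments in the control and 5 with SCS, a ratio of 1.42 (0.276 to 9.14). NCM460 held 7 and 8 fragments, or 8.99 and 7.40 CPM, and -0.24 (-1.94 to 1.41) on the log2 scale. By the deposited FPKM the NCM460 value was -1.86. No change in TNFAIP3 could be detected at this depth, and the intervals leave room for a large one.

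CXCL2 (chr4:74097035-74099293) had 2 fragments in the HT-29 control and 17 with SCS, or 0.978 and 7.07 CPM, a ratio of 7.24 (1.72 to 64.6). With a prior count of 2 the log2 fold change was 1.89 (0.78 to 6.01), and over the 10 alternatives that could give a value it lay between 1.82 and 2.76 with the call kept. It was at 0 in both NCM460 libraries, which allows up to 3.85 CPM in the control and 2.77 CPM with SCS. HT-29 with SCS was thus the 1 library in which CXCL2 passed 3 fragments.

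CXCL8 (chr4:73740506-73743716), a neutrophil chemokine, had the most chemokine fragments in the HT-29 control. It had 18 fragments there and 24 with SCS, or 8.80 and 9.99 CPM, with a log2 fold change of 0.16 (-0.76 to 1.15). The NCM460 control held 0 fragments and NCM460 with SCS held 4. Against the limit of 3 fragments this is a ratio of 0.960, so no fold above 1 can be given. CXCL8 made up 85.7% (63.7 to 97.0) of the fragments of the 5 chemokines in the HT-29 control, 18 of 21, and 54.5% (38.8 to 69.6) with SCS, 24 of 44, and these intervals overlapped.

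CXCL1 (chr4:73869393-73871242) had 1 fragment in each of the 4 libraries. CXCL3 (chr4:74036589-74038807) had 2 fragments in HT-29 with SCS, 1 in NCM460 with SCS and 0 in both controls. CCL20 (chr2:227813842-227817564), the ligand of CCR6, was at 0 in all 4 libraries. No fold is given for any of them. CXCL1, CXCL2 and CXCL3 are close relatives, and 5.73%, 9.24% and 3.02% of the 50-base windows of their longest transcripts occur in at least 1 of the other 2, and fragments from such windows could be placed in any of these genes. Summed over the 5 chemokines, HT-29 went from 21 fragments to 44 with SCS, a log2 fold change of 0.76 (0.05 to 1.66). The call was lost with the GC trend subtracted (0.68) and with scaling by nuclear fragments (0.63). NCM460 had 1 and 6 fragments, a ratio of 4.32 (0.524 to 199).

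**Figure D3:**
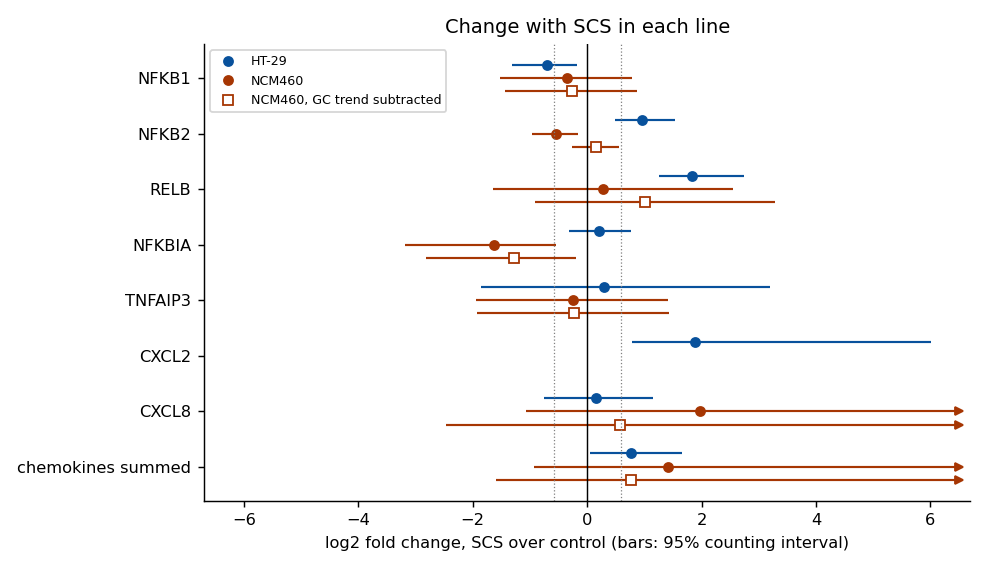
Log2 fold change with SCS over control (x axis) of the members that exceeded 3 fragments in a line and of the summed chemokines, with 95% counting intervals; open squares are NCM460 after subtraction of the GC trend, dotted lines mark a 1.5-fold change, and arrows mark intervals without an upper end inside the axis. RELB stood at 1.84, NFKB2 at 0.96 and NFKB1 at -0.71 in HT-29, and NFKBIA at -1.64 in NCM460.

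Per length of transcript, the order of the members differed between lines. On the deposited FPKM scale, NFKBIA led the HT-29 control at 13.7, followed by NFKB1 at 10.5 and NFKB2 at 8.73, with each neighbour's counting interval overlapping the next. In HT-29 with SCS, RELB led at 15.7 (12.6 to 19.2), followed by NFKBIA at 15.0 and NFKB2 at 12.5, and CXCL2 at 6.66 stood next to NFKB1 at 6.08, all with neighbours overlapping. In the NCM460 control, NFKB2 at 47.8 (39.2 to 57.7) was clear of NFKBIA at 24.5 (14.9 to 37.8). In NCM460 with SCS, NFKB2 at 32.8 (26.7 to 39.8) was clear of NFKB1 at 7.77 (4.35 to 12.8). The ratio of FPKM to fragments varied by gene and library. In the NCM460 control and with SCS, TNFAIP3 had 7 and 8 fragments but 6.88 and 1.83 FPKM, and NFKB2 had 108 and 102 fragments. The counting intervals do not cover that variation.

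The difference between the lines was taken from the fragments after TMM scaling, whose factors differed between the lines. No other scaling was tried for the log2 ratios between the lines, and no GC trend was subtracted from them. NFKB2 was lower in HT-29 than in NCM460 by a log2 ratio of -2.56 (-3.16 to -2.11) in the controls and of -1.05 (-1.47 to -0.66) with SCS. The change of NFKB2 with SCS in HT-29 exceeded that in NCM460 by 1.55 (0.89 to 2.23) on the log2 scale, and by 0.87 (0.21 to 1.54) with the GC trends of both lines subtracted. RELB was at 0.79 (-0.65 to 2.94) in HT-29 over NCM460 in the controls and at 2.35 (1.46 to 3.92) with SCS. The difference between its changes was 1.62 (-0.73 to 3.76), which was not larger than counting error.

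For NFKBIA the HT-29 control differed from the NCM460 control by -0.04 (-0.81 to 0.78), and HT-29 with SCS from NCM460 with SCS by 1.81 (0.92 to 3.24). The difference between its changes was 2.01 (0.63 to 3.52), and 1.68 (0.30 to 3.19) with the GC trends subtracted. NFKB1 gave -0.37 (-1.67 to 0.93). After TMM scaling, TNFAIP3 was lower in HT-29 than in NCM460 in the controls, at -1.91 (-5.20 to -0.48), from 3 and 7 fragments. With SCS it was at -1.37 (-3.79 to -0.04), from 5 and 8 fragments. Whether this holds under another scaling was not tested. These intervals compare pairs of libraries, and how much separate cultures of one line vary is not known here.

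A further fit asked for 1 SCS effect common to HT-29 and NCM460, with the lines standing in for replicates and 1 residual degree of freedom. There edgeR's quasi-likelihood test passed 9 of 12942 loci (0.0695%) at a Benjamini-Hochberg adjusted p of 0.05, and none of them was a member. RELB came nearest, with a shared log2 change of 1.41 and an adjusted p of 0.933 by edgeR's quasi-likelihood test (0.0703 unadjusted). An unadjusted p under 0.05 was reached by 695 loci with edgeR and by 230 with DESeq2, and by 0 members with either tool.

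The pathway, with the members included, was described from 7 lists that hold 119 genes. The calls of the members are therefore counted again in these lists. In HT-29, 75 of their loci were compared, of which 22 were called higher and 8 lower (16.8% and 14.8% of all loci), with a median log2 fold change of 0.23 against 0.07 over all loci. In NCM460, 71 were compared, of which 9 were called higher and 13 lower (15.4% and 13.8% of all loci), with a median of -0.24 against 0.03. With the GC trend subtracted, 3 were called higher and 7 lower in NCM460 (5.59% and 6.23% of all loci).

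The inhibitors and feedback regulators were compared at 14 loci in each line. In HT-29, 3 were called higher and 0 lower, beside 16.8% and 14.8% of all loci. TNIP1, an A20-binding protein with the highest CPM of the list when summed over all 4 libraries (in HT-29 the NFKBIZ locus was higher), had 112 fragments in the HT-29 control and 213 with SCS, at 0.68 (0.36 to 1.04). CYLD, a deubiquitinase, had 24 and 60 fragments, at 1.01 (0.38 to 1.84). NFKBID, a nuclear IκB protein whose locus overlaps another gene, had 10 and 27 fragments, at 1.02 (0.11 to 2.41). TRAF3, which restrains the alternative pathway, was the lowest of the list at 40 and 33 fragments, or -0.47 (-1.22 to 0.19), and was not called. In NCM460, 3 were called higher and 3 lower, beside 15.4% and 13.8% of all loci. With the GC trend subtracted, 0 were called higher and 1, the member NFKBIA, lower, beside 5.59% and 6.23% of all loci. CYLD was the highest there with 1 and 13 fragments, a ratio of 9.36 (1.41 to 398), a call lost with the trend subtracted. NFKBIE, which encodes IκBε, had 12 and 4 fragments in NCM460, at -1.75 (-4.15 to -0.34), and -1.06 (-3.46 to 0.35) with the trend subtracted.

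The kinases and adaptors that release NF-κB were compared at 21 loci in each line. In HT-29, 5 were called higher and 3 lower, beside 16.8% and 14.8% of all loci, with a median of 0.21 against 0.07. RBCK1 (HOIL-1, of the linear ubiquitin ligase LUBAC) went from 230 fragments to 1182 with SCS, at 2.12 (1.92 to 2.34), the highest of the list. MYD88, the adaptor of Toll-like and IL-1 receptors, had 36 and 17 fragments, at -1.18 (-2.24 to -0.45), the lowest of the list. In NCM460, 4 were called higher and 4 lower, beside 15.4% and 13.8% of all loci. With the GC trend subtracted, 0 were called higher and 3 lower, beside 5.59% and 6.23% of all loci. These 3 (TAB2, TRAF6 and IRAK4) were not among the 4 called lower before. MAP3K7 (TAK1) was highest there with 4 and 26 fragments, at 1.98 (0.70 to 4.21), or 0.81 (-0.48 to 3.03) and not called with the trend subtracted. TRAF2 was lowest with 19 and 8 fragments, at -1.57 (-3.12 to -0.46), or -0.88 (-2.43 to 0.23) and not called with the trend subtracted.

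Of the 19 receptors upstream, 11 were compared in HT-29, with 2 called higher and 1 lower (16.8% and 14.8% of all loci). IL1RAP, the accessory chain of the IL-1 receptor, had 5 and 36 fragments in HT-29 at a locus that overlaps another gene, at 2.13 (1.26 to 4.32). TLR4, the receptor of lipopolysaccharide, had 18 and 8 fragments, at -1.13 (-2.81 to -0.13). TNFRSF21, the receptor with the highest CPM summed over all 4 libraries, had 418 and 403 fragments, at -0.28 (-0.49 to -0.08), and was not called. In NCM460, 13 were compared, with 0 called higher and 1 lower (15.4% and 13.8% of all loci). Subtracting the GC trend made this 1 higher and 0 lower (5.59% and 6.23% of all loci). IL17RE was the highest of the list there with 2 and 10 fragments, a ratio of 3.60 (0.767 to 33.8), and IL17RA the lowest with 17 and 11 fragments, at -1.01 (-2.34 to 0.08). TNFRSF1B and TLR2 were at 0 in all 4 libraries.

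Among 20 chemokines of epithelium, 11 were detected in HT-29 and 4 in NCM460. Beside CCL20, the genes CXCL5, CXCL6, CXCL9, CXCL10, CXCL14, CCL2, CCL24 and CCL25 were at 0 in all 4 libraries. CXCL16, a membrane-bound chemokine with the highest CPM of the list when summed over all 4 libraries, though below CXCL8 in HT-29, had 15 fragments in the HT-29 control and 9 with SCS, at -0.78 (-2.34 to 0.32). In NCM460 its 48 and 22 fragments, or 61.6 and 20.3 CPM, gave -1.54 (-2.40 to -0.84), called lower, and -1.01 (-1.87 to -0.32) with the GC trend subtracted. Of 8 chemokine receptors, CXCR1, CXCR2, ACKR1 and ACKR3 were at 0 in all 4 libraries. CXCR1 and CXCR2 are the receptors of CXCL8 and its relatives. CCR6, the receptor of CCL20, lies in a locus of 3 genes that also holds FGFR1OP. This locus had 28 and 35 fragments in HT-29, at 0.08 (-0.67 to 0.86), and 2 and 8 in NCM460. Which of its genes gave the fragments cannot be told, so they do not show that CCR6 was expressed.

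The list of other NF-κB target genes had the highest median of the 7 lists in HT-29. The lists were chosen with earlier results of these data known, so this order is a description only. They also differ in size, with 1 locus compared among the chemokine receptors. Of 31 genes, 17 were compared in HT-29, with 9 called higher and 3 lower (16.8% and 14.8% of all loci) and a median log2 fold change of 0.81 against 0.07 over all loci. LCN2 (lipocalin 2, an antibacterial iron-scavenging protein) went from 65 fragments to 694 with SCS, or 31.8 and 289 CPM, at 3.13 (2.82 to 3.57). PTGS2 (cyclooxygenase 2) went the other way, with 121 and 34 fragments, or 59.1 and 14.1 CPM, at -1.97 (-2.66 to -1.50). IER3, an early-response gene with the highest CPM of the list when summed over all 4 libraries, though below LCN2 in HT-29 with SCS, had 281 and 291 fragments, at -0.18 (-0.42 to 0.06). SOD2, the mitochondrial superoxide dismutase, had 87 and 119 fragments, at 0.21 (-0.19 to 0.64), and TNFAIP2 had 67 and 21, at -1.77 (-2.69 to -1.18).

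The next values were picked after they had been seen. IL23A, the p19 chain of interleukin 23, had 12 fragments in the HT-29 control and 120 with SCS, at 2.84 (2.23 to 4.08). IL32 had 0 and 15 fragments at a locus that overlaps another gene. It was 4.26-fold higher with the control set at 3 fragments, and its counting interval ran from a ratio of 3.05 upwards. TRAF1 had 0 and 7 fragments. It was 1.99-fold higher with the control set at 3 fragments, and its counting interval ran from a ratio of 1.23 upwards. ICAM1, an adhesion molecule for leukocytes, had 28 and 62 fragments, at 0.86 (0.25 to 1.61), and IRF1, an interferon-pathway factor, had 71 and 149, at 0.81 (0.42 to 1.27). BIRC3 had 15 and 17 fragments, at -0.04 (-1.14 to 1.05). TNFAIP8 had 45 and 26, at -0.94 (-1.78 to -0.30), and was called lower. Most of those picked were called higher, where the list had 9 called higher and 3 lower.

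In NCM460, 13 of the target genes were compared, with 1 called higher and 3 lower (15.4% and 13.8% of all loci). Their median was -0.13 against 0.03 over all loci. With the GC trend subtracted, 2 were called higher and 1 lower (5.59% and 6.23% of all loci), with a median of -0.07. SOD2 went from 11 fragments to 58 with SCS, or 14.1 and 53.6 CPM, at 1.83 on the log2 scale with a ratio of 3.80 (1.97 to 8.02), and 0.93 (0.07 to 2.09) with the GC trend subtracted. TNFAIP2 had 29 and 11 fragments, at -1.75 (-3.02 to -0.83), and -1.05 (-2.32 to -0.13) with the trend subtracted. IER3 had 542 and 441 fragments, at -0.77 (-0.96 to -0.59), and -0.14 with the trend subtracted. LCN2, IL23A, IL32 and PTGS2 were at 0 in both NCM460 libraries. VCAM1, TNF, LTB, IL1B, IL6, CSF3, MMP9, SAA1, SAA2 and BCL2A1 were at 0 in all 4 libraries.

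**Figure D4:**
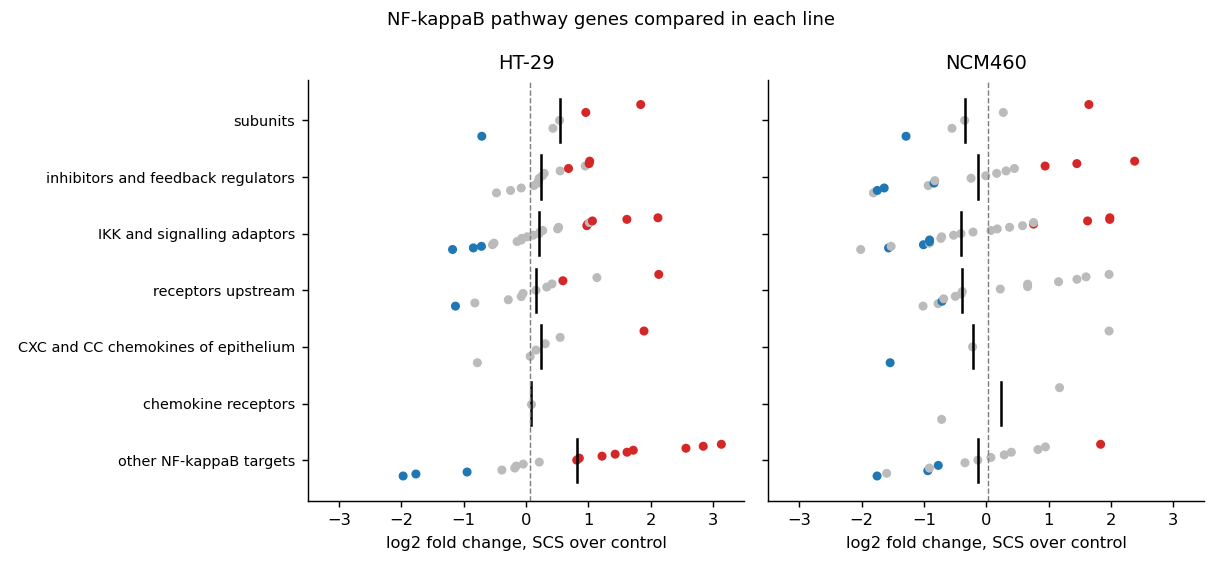
Each point is a pathway gene compared in HT-29 (left) or NCM460 (right), placed by its log2 fold change with SCS over control; red points were called higher, blue lower and grey not called, black bars are list medians, and the dashed line is the median of all loci. The median of the target genes was 0.81 in HT-29 and -0.13 in NCM460.

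**Figure D5:**
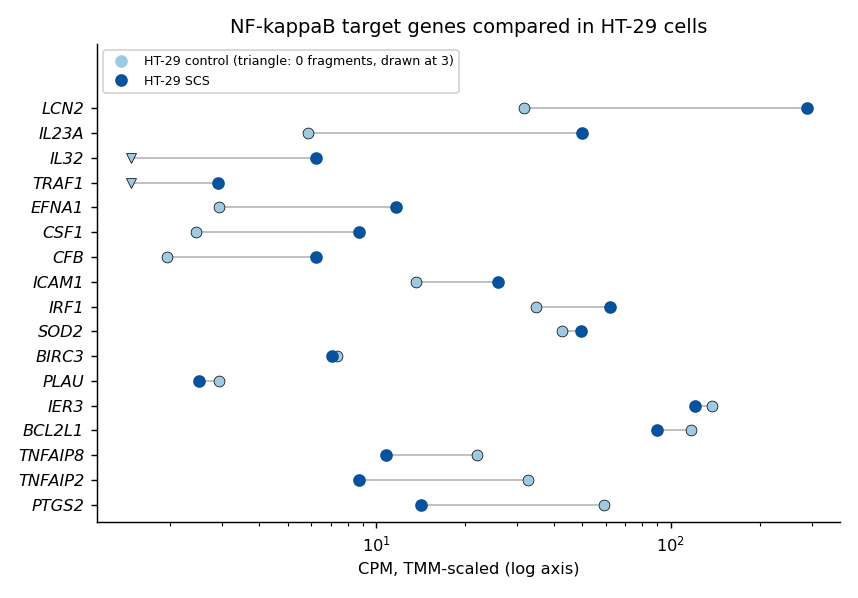
CPM after TMM scaling (log axis) of the 17 NF-κB target genes compared in HT-29, in the control (light) and with SCS (dark), in order of their fold change; triangles mark 0 fragments drawn at 3 fragments. LCN2 moved from 31.8 to 289 CPM and PTGS2 from 59.1 to 14.1 CPM.

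The pattern of NFKB2 over the 4 libraries was set beside the 7799 loci that averaged 10 CPM or more, by the Euclidean distance of centred log2 CPM. The nearest were C11orf68 at 0.254, the overlapping ABHD14B and PCBP4 at 0.272, FAM117A at 0.280, SPTB at 0.287 and BCAS3 at 0.295. Some rest on few fragments. In the HT-29 control, HT-29 SCS, NCM460 control and NCM460 SCS, FAM117A had 6, 12, 15 and 14, and SPTB had 7, 15, 22 and 17. The distances carry no counting interval, so their order is uncertain. Their transcript GC content was 58.3% to 62.7%, and that of NFKB2 was 62.4%.

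The markers of other cell types were read beside the members. The 12 mesenchymal and endothelial markers summed to 11 fragments in the HT-29 control and 9 with SCS, and to 30 and 31 in NCM460, with COL1A1 the most abundant at 8 and 17 in NCM460. COL1A2, COL3A1, FAP, DCN and LUM were at 0 throughout. The 12 leukocyte markers summed to 1266 and 948 fragments in HT-29 and to 482 and 627 in NCM460, nearly all from LYZ, with 603 and 352 fragments in HT-29, and from the CD68 locus, which overlaps EIF4A1. The colon epithelium markers moved both ways in HT-29, where 4 of 9 were called higher and 4 lower (16.8% and 14.8% of all loci). CEACAM5, at a locus shared with CEACAM6, was the highest with 10 and 95 fragments, at 2.73 (2.07 to 4.12), and VIL1 the lowest with 138 and 24 fragments, at -2.61 (-3.45 to -2.12). In NCM460, 1 of 6 was called higher and 3 lower (15.4% and 13.8% of all loci). After subtracting the GC trend these counts were 1 and 0 (5.59% and 6.23% of all loci). EPCAM, an adhesion molecule of epithelia, was the highest there with 36 and 126 fragments, at 1.31 (0.79 to 1.91), and the keratin gene KRT18 the lowest with 548 and 372, at -1.03 (-1.23 to -0.84), or -0.52 with the GC trend subtracted. KRT8, its partner keratin, with the highest CPM of the markers when summed over all 4 libraries, had 7024 and 3518 fragments in HT-29 and 1406 and 1117 in NCM460, at -1.23 (-1.29 to -1.17) and -0.80 (-0.92 to -0.69), the NCM460 value being -0.27 and not called with the GC trend subtracted. What part the state of the epithelium had in the members' values was not tested.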

How the data were processed

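RNA was extracted with TRIzol, made into libraries with an NEBNext Ultra kit, which does not mark strand, and sequenced as paired ends. The submitters' processing notes name bcl2fastq 2.17.1.14, cutadapt 1.9.1, Bowtie2, HTSeq 0.6.1 and hg19, whereas the gene coordinates of the table are those of GRCh38: 87.8% of genes had the same start and end as in GENCODE release 29. The paper names Cuffdiff for differential expression. The deposited count columns are a signal, whole fragments times a constant of each library. Division by that constant gave whole numbers (tolerance 0.02) for 99.8% to 99.9% of values above 0, and for 100% under 200 fragments, and these fragments were analysed. The deposited FPKM values, scaled by the authors per kilobase and library, were used for order between genes and as an alternative. They did not stand at a fixed ratio to the fragments of a gene, even after library scaling. Rows without a gene name, 26 of 64962, held 0.0058% to 0.0352% of the fragments summed over all rows and were left out. In these sums, 4241669 to 9370765 per library, a value repeated in several rows counts once for each row. They are therefore larger than the library sizes after merging. Adjacent rows with identical values were merged into 18650 loci, of which 1812 hold several genes whose values are uncertain.

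Fragments were scaled by edgeR's TMM (version 4.0.16, R 4.3.3), with factors of 1.24, 1.50, 0.578 and 0.935 for HT-29 control, HT-29 SCS, NCM460 control and NCM460 SCS. Log2 fold changes used a prior count of 2 and loci that averaged 1 CPM or more in the line. Intervals are exact Clopper-Pearson intervals at 95%. With 1 library per condition the count tests of edgeR and DESeq2 (version 1.42.0) could not be fitted on the recovered fragments within a line, so they call no genes there. The model shared by both lines was fitted with them. A lowess trend (span 0.3) on transcript GC content, known for 98.9% of loci, was subtracted as an alternative. Genes at 0 are given against 3 fragments. The procedure was run on simulated Poisson counts that had no spread between cultures and no GC trend. All 200 changes planted in each line were recovered. Of loci without a planted change, 272 of 11966 were called in HT-29 and 294 of 12332 in NCM460. Changes were planted at well-covered loci only, so the simulation does not cover members with few fragments. It cannot show how calls hold up against variation between cultures. The members, the lists and the tests were chosen with earlier results of these data known. Named beyond the members are, for each list, the genes with the highest and the lowest change in each line among those averaging 5 CPM or more and the most abundant gene, the 5 loci most like NFKB2, and genes at 0 in all 4 libraries. Any other gene, such as those at 0 in 1 line only, CDX2, and the loci with opposite or changed calls, was named after its values were seen. Of the marker genes, 1 is not reported here. The paper speaks of biological replicates, and 1 library per condition was analysed here. A cell line library gives no spread between cultures.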

Additional observations from a re-analysis of the deposited data

Results flagged for a closer look

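At 4 pathway loci the lines moved in opposite directions, and the difference between the lines was not tested over replicates. RBCK1 had a log2 fold change with SCS of 2.12 in HT-29 and of -0.91 in NCM460. RNF31, the catalytic subunit of the same ubiquitin ligase, at a locus shared with IRF9, had 1.07 in HT-29 and -1.01 in NCM460. TNIP1 had 0.68 in HT-29 and -0.84 in NCM460. CHUK, which encodes the kinase IKKα, at a locus shared with ERLIN1, had -0.71 in HT-29 and 0.76 in NCM460. With the GC trend subtracted the NCM460 values were -0.18 for RBCK1, -0.45 for RNF31, -0.19 for TNIP1 and 0.35 for CHUK, and none of the 4 was called there.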

How the results depend on the processing

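Of the members called in HT-29, RELB kept its call under all 11 alternatives and CXCL2 under all 10 that gave it a value. NFKB1 lost its call under 1 of 11 and NFKB2 under 1 of 11, and no direction of a called value reversed. With total fragments alone, which moved the median of all loci to 0.32 in HT-29 and 0.57 in NCM460, the members called lower went to 0 in each line, the loci called to 3148 higher and 1115 lower in HT-29 and to 3945 higher and 248 lower in NCM460, and the pathway loci to 4 lower in HT-29 and to 17 higher and 3 lower in NCM460. By the deposited FPKM, called by fold alone without an interval (pseudocount 0.1), 3729 loci and 13 pathway loci were lower in HT-29. In NCM460 the same unit gave 3192 loci higher and 5238 lower, 16 pathway loci higher and 33 lower, 1 member higher and 4 lower, and a summed chemokine change of 0.82. With the GC trend subtracted, the summed chemokines in HT-29 were at 0.68, and in NCM460 707 loci were called higher and 789 lower, with 3 and 7 pathway loci. Nuclear fragments alone put the HT-29 chemokine sum at 0.63. In NCM460, 2 members were called lower under the length trend, the deposited scaling and DESeq2's size factors alike, and the length trend left 4 pathway loci higher. For the shared change, DESeq2 passed 27 of the 1651 loci to which it gave an adjusted p, and edgeR passed 9 of 12942. Among the members, DESeq2 gave an adjusted p to NFKB2 alone. The causes of these shifts were not tested. Leaving out a library was not possible with 1 per condition. The depth limits the chemokines most: 3 fragments are 1.25 to 3.85 CPM.

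The shared fit, with the line as its block, paired SCS with control by cell line. No paired analysis was possible by replicate number, since each condition has 1 library and the labels carry no such numbers.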
